A study of Mus musculus with 6 samples.

Results

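Mast cells and basophils were followed through 10 genes that mark them, Cpa3, Mcpt1, Mcpt2, Mcpt4, Mcpt8, Tpsb2, Cma1, Kit, Hdc and Gata2, in whole lungs of Foxa2-/- mice and their littermate controls. The genes were chosen by name as markers of these cells. They and the lists read below were chosen with earlier results of these data known. All 10, among 18193 genes on the array, had at least 1 probe set that the annotation assigns to them alone. They had 14 probe sets in all. Whole-lung RNA was hybridised to 6 Affymetrix whole-genome mouse arrays at postnatal day 15, of which 3 carry the genotype label Foxa2-/- and 3 the label wildtype, control. Both groups share the strain label SPC(+)Cre(-) and doxycycline (Dox) given from embryonic day 6.5 to 12.5. On its plain reading the strain label marks the recombinase Cre as absent in both groups. For the 3 Foxa2-/- arrays this conflicts with the genotype label, and the reason is not given. SPC stands for surfactant protein C, a gene of the distal lung epithelium. The genotype label was taken as the group, and Foxa2 itself, a forkhead factor of the lung epithelium, read 7.72, 5.38 and 5.13 in Foxa2-/- lungs against 10.28, 10.56 and 10.28 in control lungs (log2 signal). The label thus follows the Foxa2 signal in all 6 arrays, with the most signal left in Foxa2-/- replicate 1, although the Foxa2 difference had a limma adjusted p of 0.0599.

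Mast cells live in tissues near vessels, airways and epithelia. Basophils circulate in blood and enter tissues during type 2 (allergic, parasite-directed) inflammation. Both store histamine and proteases in granules and release them when antigen cross-links IgE on the high-affinity IgE receptor. Mouse mast cells are grouped by the proteases they hold: connective tissue mast cells carry the chymases encoded by Mcpt4 and Cma1 together with tryptases and carboxypeptidase A3, while mucosal mast cells, which expand in epithelia under type 2 cytokines, carry the chymases encoded by Mcpt1 and Mcpt2. Mcpt8 encodes a protease of mouse basophils.

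All values are the authors' RMA signals on a log2 scale, a 1-unit difference being a doubling, and are given for each gene's brightest probe set unless stated. Array medians lay between 7.85 and 7.91, and a value below the 25th percentile of its array (5.69 to 5.78) is called dim, because the deposited values do not show whether such signal is above background. The sample titles of control replicate 2 and of Foxa2-/- replicates 2 and 3 begin with a common number, treated here as a possible batch. RNA integrity was read from the Gapdh controls as their 3-prime signal minus their 5-prime signal, which was 0.91 to 0.97 in Foxa2-/- lungs and 1.06 to 1.23 in control lungs, without overlap. The same measure from Actb was 0.43 to 0.47 in Foxa2-/- lungs and 0.46 to 0.65 in control lungs, with overlap. The part of RNA integrity in any difference below was not tested. The arrays measure RNA of the whole lung, so more cells of a type and more RNA per cell cannot be told apart.

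Of the 10 genes, 1 rose in Foxa2-/- lungs, none fell and 9 did not pass limma's test at an adjusted p under 0.05 over all 18193 genes. The one that rose was Mcpt2. Over all genes 0.572% passed in either direction, 0.473% as higher and 0.0989% as lower. In 3 of the 10 genes (Mcpt2, Mcpt4 and Cma1) every Foxa2-/- array lay above every control array, where 10.8% of all genes did so, and in none of the 10 did every Foxa2-/- array lie below, where 8.73% of all genes did. The median difference of the 10 genes was 0.21 log2 units, beside 0.0053 over all genes. At an unadjusted p under 0.05 stood 3 of the 10 genes (12.3% of all genes) and 3 of the 14 probe sets (10.7% of all probe sets), and none of the 14 passed when limma was adjusted over all 45037 probe sets, of which 0.0999% did. The plot of signal by array shows how the 10 genes divide: the granule proteases lie from the dim range to about the array median, with Tpsb2 and Cma1 above it on 3 arrays each, and Kit, Hdc and Gata2 lie far above it on all 6.

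**Figure D1:**
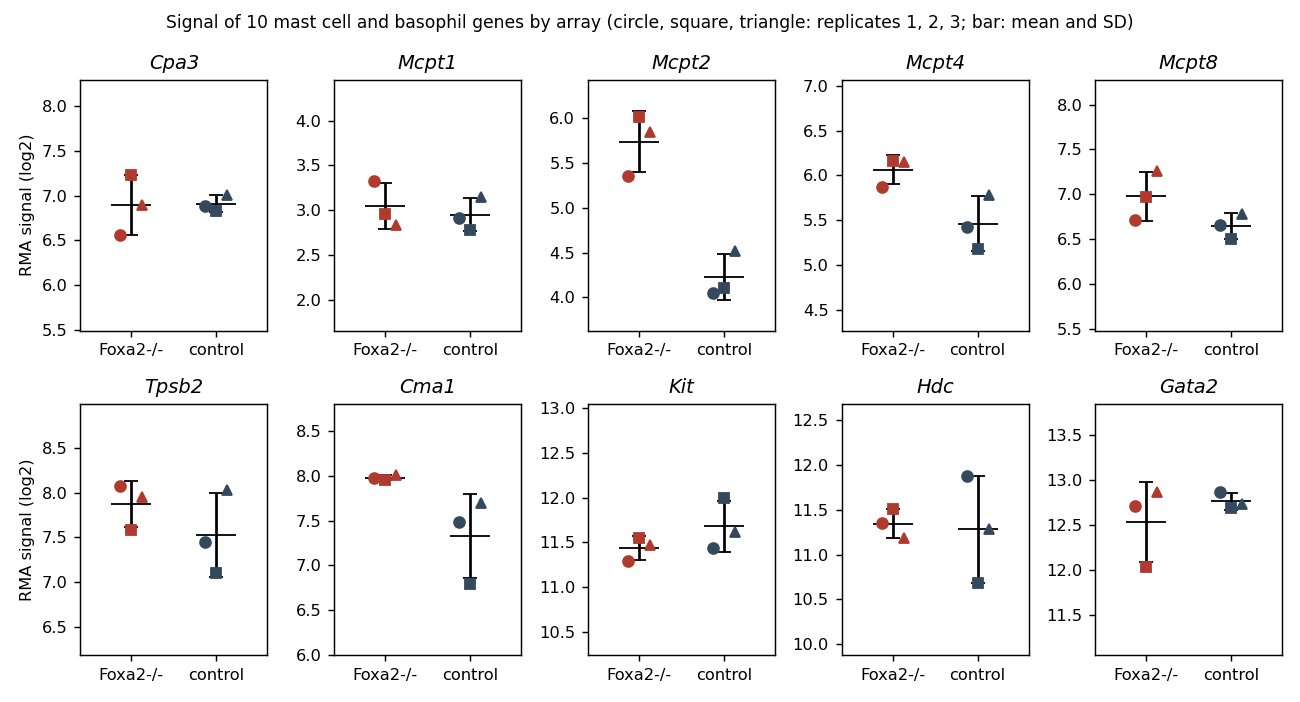
Log2 RMA signal (vertical axis, each panel spanning the same 2.8 log2 units) of the brightest probe set of each of the 10 genes in 3 Foxa2-/- and 3 control lungs; markers are arrays, bars the mean and SD. In the panels of Mcpt2, Mcpt4 and Cma1 the Foxa2-/- arrays all lie above the control arrays, and in the other 7 panels the groups overlap.

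Mcpt2, a chymase of mucosal mast cells, was the gene that rose. Its single probe set read 5.36, 6.01 and 5.85 in Foxa2-/- lungs against 4.05, 4.10 and 4.52 in control lungs. All control values and the lowest Foxa2-/- value, that of replicate 1, are dim, and even the highest array lies below the array medians. The difference was 1.51 (SE 0.21, 95% interval 1.00 to 2.03, limma adjusted p = 0.0499), and no fold is given because the control level is dim. The mean of Mcpt2 over the 6 arrays ranked at percentile 12.2 of all genes. The call sits at the threshold: it held without Foxa2-/- replicate 1 (1.70, adjusted p = 0.0269) but ended without Foxa2-/- replicate 2 (adjusted p = 0.144), Foxa2-/- replicate 3 (0.168), control replicate 1 (0.201), control replicate 2 (0.18) or control replicate 3 (0.0904), while the difference stayed between 1.38 and 1.70. It also ended when adjusted over all probe sets (0.0821) and with the title number as a fixed block, which rests on 2 Foxa2-/- arrays and 1 control array (difference 1.83, adjusted p = 0.213).

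Mcpt1, the neighbouring mucosal chymase, did not follow Mcpt2. Its probe set read 3.33, 2.96 and 2.84 in Foxa2-/- lungs against 2.91, 2.78 and 3.15 in control lungs, dim on all 6 arrays and overlapping between the groups. The difference was 0.09 (95% interval -0.32 to 0.51, adjusted p = 0.856), and the mean ranked at percentile 0.61 of all genes, close to the lowest signal the arrays gave (2.36 to 2.46). The interval leaves out a rise in signal as large as that of Mcpt2 (1.51). At this brightness a fall or a small rise of Mcpt1 was not detectable. The chymase genes are close copies of one another, and whether their probe sets share signal was not tested.

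Mcpt4 and Cma1, the chymases of connective tissue mast cells, had the next largest differences among the 10 genes. Mcpt4 read 5.87, 6.16 and 6.15 in Foxa2-/- lungs against 5.42, 5.17 and 5.78 in control lungs, of which 2 controls are dim. Cma1 read 7.97, 7.95 and 8.004 in Foxa2-/- lungs against 7.49, 6.80 and 7.69 in control lungs. For both genes the groups do not overlap, control replicate 2 is the lowest array and control replicate 3 the nearest to the Foxa2-/- lungs. The Mcpt4 difference was 0.60 (SE 0.18, 95% interval 0.16 to 1.04, adjusted p = 0.246) and the Cma1 difference 0.65 (SE 0.23, 95% interval 0.09 to 1.21, adjusted p = 0.329), so neither passed over all genes. The spread lay in the controls: Cma1 had an SD of 0.03 in Foxa2-/- lungs, at percentile 1.82 of all genes, and of 0.47 in control lungs, at percentile 92.9 (n = 3 each). Cma1 depended most on control replicate 2, without which its difference was 0.39, and against that control alone, within the shared title number, it was 1.18 and that of Mcpt4 was 0.98.

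The serine protease genes Cma1, Mcpt1, Mcpt2, Mcpt4 and Mcpt8, 5 of the 10, lie together in one stretch of chromosome 14 (GRCm38.p6, chr14:55941451-56085499, 144 kb from the outer end of Cma1 to that of Mcpt8), with Mcpt1 at chr14:56017964-56020391, Mcpt2 at chr14:56021584-56044635 and Mcpt4 at chr14:56059744-56062310. RefSeq start windows, which run from 250 bases before to 50 bases after an annotated start of transcription, were found for 8 of the 10 genes. None was found for Tpsb2 or for Mcpt2, the gene that rose, so the sequences below do not cover it. The windows of Mcpt1 and Mcpt4, chymase genes on either side of Mcpt2, are shown because they have nearly the same sequence. That of Cpa3 is shown because it holds the same words in another family. Capitals mark a GATA word, which is AGATAA with T also allowed as its first letter and G as its last, on either strand, and the word TATAAA on the strand shown, which do not overlap each other here. The windows are chr14:56017714-56018013 on the plus strand for Mcpt1, chr14:56062261-56062560 on the minus strand for Mcpt4 and chr3:20242132-20242431 on the minus strand for Cpa3, each written 5′ to 3′.
Mcpt1: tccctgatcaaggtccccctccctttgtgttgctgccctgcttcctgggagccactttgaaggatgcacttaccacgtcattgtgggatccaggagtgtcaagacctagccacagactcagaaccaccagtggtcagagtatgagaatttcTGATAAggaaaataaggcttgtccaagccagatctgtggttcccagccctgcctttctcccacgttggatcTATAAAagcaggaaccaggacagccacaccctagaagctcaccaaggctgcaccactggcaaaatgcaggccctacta
Mcpt4: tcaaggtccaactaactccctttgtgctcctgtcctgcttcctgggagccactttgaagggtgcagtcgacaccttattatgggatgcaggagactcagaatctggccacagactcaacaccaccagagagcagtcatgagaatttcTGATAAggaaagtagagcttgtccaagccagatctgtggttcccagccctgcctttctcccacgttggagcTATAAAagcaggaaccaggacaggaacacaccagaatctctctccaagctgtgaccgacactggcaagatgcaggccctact
Cpa3: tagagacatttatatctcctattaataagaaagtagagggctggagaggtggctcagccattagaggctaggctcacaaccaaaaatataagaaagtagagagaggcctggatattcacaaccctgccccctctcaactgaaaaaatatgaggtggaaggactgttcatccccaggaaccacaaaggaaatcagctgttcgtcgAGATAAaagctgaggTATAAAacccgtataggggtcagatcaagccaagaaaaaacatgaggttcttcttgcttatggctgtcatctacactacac

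In a global alignment 254 of the 300 bases of the Mcpt1 window matched the Mcpt4 window (84.7%), with one unbroken shared run of 53 bases between the GATA word and the TATAAA word. Other pairs among Cpa3, Mcpt1, Mcpt4, Mcpt8 and Cma1 matched at 55.3% to 64.7% of the window, of which Mcpt1 and Mcpt8 were the closest. Gaps lengthen the alignments, and as a share of the alignment these other pairs matched at 47.4% to 54.3%, with Mcpt4 and Mcpt8 the closest. By that measure Mcpt1 and Mcpt4 matched at 81.4%. What share unrelated windows would give was not tested. The GATA word begins at position -99 from the start in Mcpt1, -103 in Mcpt4 and -46 in Cpa3, and TATAAA at -28, -32 and -31. A GATA word was found in 5 of the 8 genes (those 3, Cma1 and Hdc), where 29.8% of all 32851 windows held one. TATAAA was found in 3 of the 8, where 8.32% of all windows held it. MITF, a factor of mast cells, binds E-box words. The E-box CATGTG was looked for on both strands together with its palindromic form CACGTG, and either was found in none of the 8, where 20.4% of all windows held one. The counts among the 8 are by gene and the shares over all are by window. Kit and Gata2 have further windows from other annotated starts, and none of theirs held a GATA word, TATAAA or either E-box. A match describes the letters and no binding.

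**Figure D2:**
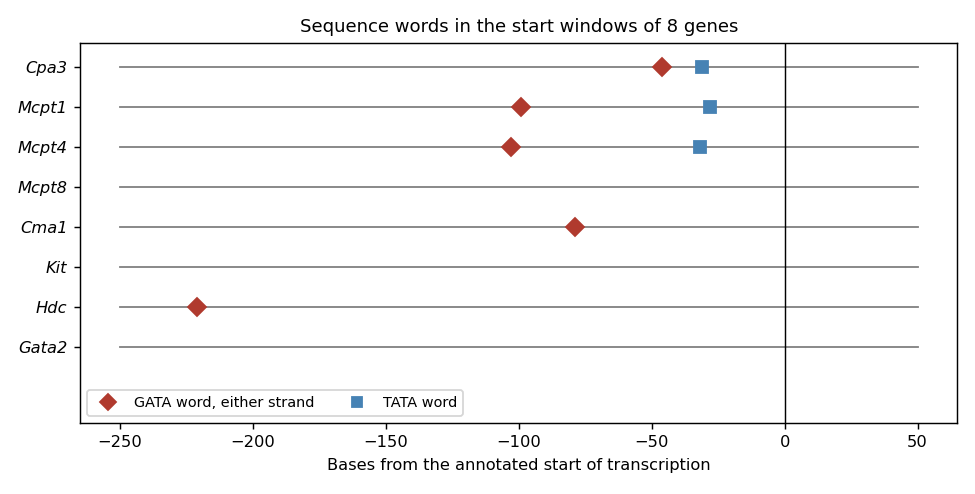
Position of GATA words (diamonds) and of the TATA word (squares) in bases from the annotated start of transcription, in the 300-base windows of 8 of the 10 genes. Mcpt1, Mcpt4 and Cpa3 hold both words, Cma1 and Hdc a GATA word alone, and Mcpt8, Kit and Gata2 neither.

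Tpsb2 and Cpa3, the other 2 granule proteases of mast cells, overlapped between the groups. Tpsb2, a tryptase stored with heparin, read 8.08, 7.58 and 7.94 in Foxa2-/- lungs against 7.45, 7.10 and 8.03 in control lungs. Its difference was 0.34 (SE 0.26, 95% interval -0.28 to 0.97, adjusted p = 0.655), with control replicate 3 as high as the Foxa2-/- lungs. It was 0.13 without control replicate 2, 0.60 without control replicate 3 and 0.67 within the shared title number. A second, dim probe set of Tpsb2 gave 0.04. Cpa3, the carboxypeptidase that mast cells and basophils both make, read 6.56, 7.23 and 6.89 in Foxa2-/- lungs against 6.89, 6.82 and 7.01 in control lungs. The 3 controls lay within 0.19 of each other and the Foxa2-/- lungs spread on both sides of them, replicate 1 the lowest and replicate 2 the highest of all 6. The Cpa3 difference was -0.02 (95% interval -0.46 to 0.43, adjusted p = 0.981), an interval that leaves out a doubling or a halving but not smaller changes, and its sign turned without Foxa2-/- replicate 1 (0.15).

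Mcpt8, the basophil protease, read 6.71, 6.97 and 7.26 in Foxa2-/- lungs against 6.66, 6.498 and 6.78 in control lungs. Foxa2-/- replicates 2 and 3 lay above every control, and Foxa2-/- replicate 1 lay between the controls. The difference was 0.33 (SE 0.17, 95% interval -0.07 to 0.74, adjusted p = 0.499). It was 0.19 without Foxa2-/- replicate 3, and 0.62 within the shared title number, with 1 control array.

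Kit, Hdc and Gata2, a receptor, an enzyme and a transcription factor that mast cells and basophils share with other cells of the lung, were bright on every array, and none passed. Kit, the receptor for stem cell factor on which mast cells depend, is also made by lung capillary endothelium. It read 11.29, 11.55 and 11.46 in Foxa2-/- lungs against 11.43, 11.99 and 11.61 in control lungs. The groups overlap and control replicate 2 is the highest array. The difference was -0.24 (SE 0.17, 95% interval -0.65 to 0.17, adjusted p = 0.628), and a dimmer probe set of Kit gave -0.16. Without control replicate 2 it was -0.088, without control replicate 1 it was -0.37, and within the shared title number, where control replicate 2 is the only control, it was -0.48 (adjusted p = 0.381 as a fixed block).

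Gata2, needed for mast cell and basophil development and active in endothelium too, had its lowest value in Foxa2-/- replicate 2. It read 12.71, 12.03 and 12.87 in Foxa2-/- lungs against 12.87, 12.69 and 12.73 in control lungs. Replicates 1 and 3 thus lie with the controls, and without replicate 2 the difference of -0.23 (SE 0.23, 95% interval -0.77 to 0.32, adjusted p = 0.728) became 0.03. A second probe set showed the same low array and a difference of -0.22.

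Hdc, the enzyme that makes histamine from histidine and is also found in other myeloid cells, read 11.35, 11.50 and 11.18 in Foxa2-/- lungs against 11.88, 10.69 and 11.29 in control lungs. The 3 Foxa2-/- values fall inside the range of the controls, whose SD of 0.59 ranked at percentile 96.0 of all genes. The difference was 0.07 (SE 0.29, 95% interval -0.64 to 0.77, adjusted p = 0.946), which does not exclude a change of up to 0.77. It was -0.23 without control replicate 2, 0.36 without control replicate 1 and 0.66 within the shared title number (adjusted p = 0.405 as a fixed block). The other probe set of Hdc gave 0.08 and ranked the controls in the same order.

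**Figure D3:**
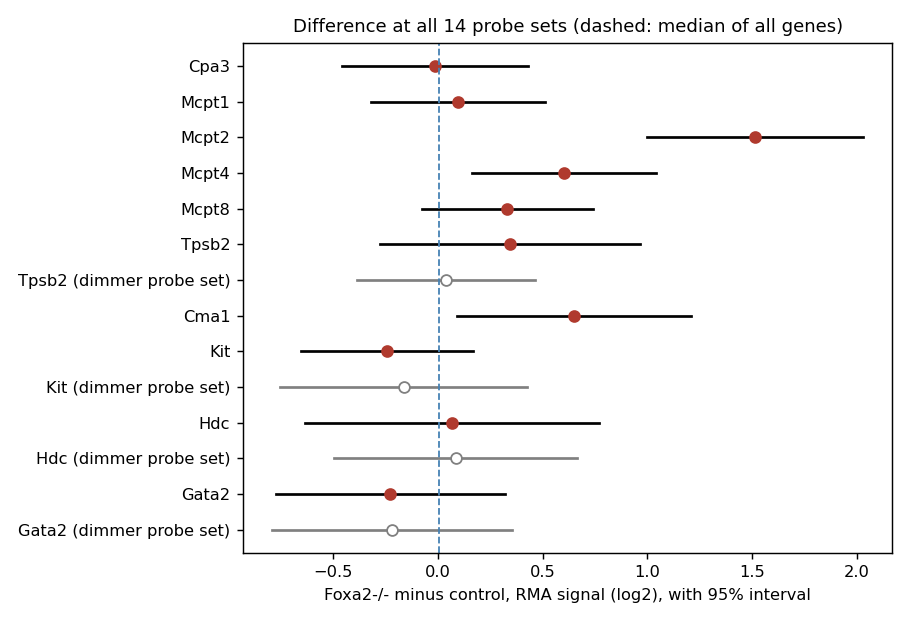
Difference of Foxa2-/- minus control (horizontal axis, log2 RMA signal) at all 14 probe sets of the 10 genes, with 95% intervals from the limma fit over all probe sets; open points are the dimmer probe set of a gene and the dashed line is the median of all genes. The intervals of Mcpt2, Mcpt4 and Cma1 lie above 0, and those of the other 11 probe sets include it.

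Because lung endothelium also makes Kit and Gata2, 10 endothelial markers were read beside them. A negative difference was found in 8 of the 10, where 9246 of all 18193 genes had a positive one. None of the 10 passed, and their median difference was -0.20. Their summed linear signal was 44518 to 60058 in Foxa2-/- lungs and 51984 to 59843 in control lungs. Tek, the angiopoietin receptor, differed by -0.30 (adjusted p = 0.333) and Kdr, a receptor for vascular endothelial growth factor, by -0.36 (adjusted p = 0.496). Of 8 neutrophil markers, read beside Hdc, none passed and the summed signal was 17322 to 27865 in Foxa2-/- lungs and 16681 to 27963 in control lungs. Most of that sum is the signal of S100a8 and S100a9. Prtn3, a granule protease, differed by 1.51 (adjusted p = 0.207), with every Foxa2-/- array above every control, as in 10.8% of all genes. Ngp, another granule protein, differed by 0.32 (adjusted p = 0.763), with overlap. The part of these cells in the values of Kit, Gata2 and Hdc was not tested.

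Among 6 eosinophil markers, 3 rose, where 0.473% of all genes did, and the median difference was 1.76. Their summed linear signal was 2620 to 5529 in Foxa2-/- lungs and 814 to 1034 in control lungs, without overlap. Most of that sum is the signal of Prg2 and Siglecf, and Siglecf is also a gene of alveolar macrophages. Prg2, a granule protein, read 10.24, 10.86 and 10.87 in Foxa2-/- lungs against 6.75, 7.20 and 7.52 in control lungs, a difference of 3.50 (adjusted p = 0.0152). Epx, the eosinophil peroxidase, differed by 2.40 (adjusted p = 0.0208) and Prg3, a relative of Prg2, by 1.55 (adjusted p = 0.0429), with 2 controls of Epx and all 3 of Prg3 dim. Among the markers that did not pass, Ccr3, the eotaxin receptor, differed by 1.94 (adjusted p = 0.487) and Il5ra, the interleukin 5 receptor chain, by 0.30 (adjusted p = 0.748), both with overlap. The part of eosinophils in the Mcpt2 signal was not tested.

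The lists of other genes of mast cells and basophils held 48 measured genes of 55, of which 4 rose, none fell and 44 did not pass, a share of passed genes to be read beside 0.572% of all genes. Their median difference was 0.29, beside 0.0053 over all genes, and 18 of the 48 had every Foxa2-/- array above every control (10.8% of all genes) while 3 had every one below (8.73% of all genes). The 4 that rose were Fcer1g, Csf2rb2, Csf2rb and Spi1, which macrophages and eosinophils also use. Many others of the 48, such as Syk, Btk and Siglecf, are also genes of other blood cells. The median and the counts are thus not those of mast cells and basophils alone, and the part of other cells in them was not tested. Without Foxa2-/- replicate 1, 4 of the 48 passed in limma. Without any 1 of the other 5 arrays none did, while the number at an unadjusted p under 0.05 was 14 to 19 (20 from all 6 arrays, where 12.3% of all genes did so).

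In the list of the IgE receptor and its signalling, 1 of 13 measured genes passed, and the median difference was 0.80. A positive difference was found in 10 of the 13, beside 9246 of all 18193 genes. Most of the list are signalling genes that other blood cells also use, among them Lcp2 (1.12), Btk (0.87), Syk (0.86) and Fyn (-0.20), none of which passed. The part of other cells in the median was not tested. Fcer1g, the signalling chain that the IgE receptor shares with the Fc receptors of macrophages, read 12.15, 12.31 and 12.18 in Foxa2-/- lungs against 11.04, 11.08 and 11.44 in control lungs. It rose by 1.03 (SE 0.14, adjusted p = 0.0499). The chains that are more particular to mast cells and basophils did not follow it. Fcer1a, which binds IgE, read 3.60, 3.30 and 4.36 in Foxa2-/- lungs against 3.66, 3.91 and 3.30 in control lungs, dim on every array (difference 0.13, adjusted p = 0.886). Ms4a2, the beta chain, read 3.98, 5.12 and 5.03 in Foxa2-/- lungs against 5.27, 4.93 and 4.57 in control lungs, also dim on every array (difference -0.21, adjusted p = 0.834). For both of these chains the groups overlap.

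Growth factors, receptors and transcription factors held the other 3 genes that rose, of 15 measured, with a median difference of 0.26. Csf2rb encodes the beta chain through which interleukin 3, interleukin 5 and GM-CSF signal, and Csf2rb2 a beta chain of the interleukin 3 receptor alone. Csf2rb2 read 10.50, 10.85 and 10.58 in Foxa2-/- lungs against 8.41, 8.88 and 8.69 in control lungs, a rise of 1.98 (SE 0.17, adjusted p = 0.019). Csf2rb read 11.78, 12.19 and 11.93 in Foxa2-/- lungs against 10.25, 10.55 and 10.47 in control lungs, a rise of 1.54 (SE 0.15, adjusted p = 0.0217). Both genes show wide gaps between groups that differ little within. Spi1, the myeloid transcription factor PU.1, rose by 1.10 (SE 0.15, adjusted p = 0.0493). Among the other transcription factors of the list, none of which passed, Gata1 differed by 1.52 (adjusted p = 0.117), without overlap between the groups. Mitf differed by 0.58 (adjusted p = 0.349), with overlap. Which cells the Gata1 signal came from was not tested. Tal1, a blood cell factor that acts with GATA factors, went the other way, by -0.49 (adjusted p = 0.281), with every Foxa2-/- array below every control. Kitl, the ligand of Kit, was 11.84, 12.27 and 12.24 in Foxa2-/- lungs against 12.52, 12.57 and 12.30 in control lungs, with every Foxa2-/- array below every control (difference -0.34, adjusted p = 0.451). The genes for interleukin 3 and interleukin 9, cytokines that drive basophils and mucosal mast cells, were dim on every array and differed by -0.02 (Il3) and 0.08 (Il9).

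No gene passed in the other 3 lists. Among 7 measured granule proteases and granule matrix genes all had a positive difference, with a median of 0.30. The counts of positive differences here are to be read beside 9246 of all 18193 genes. Ctsc, the peptidase that activates granule proteases, differed by 0.51 (adjusted p = 0.148) and Tpsg1, a membrane-anchored tryptase, by 0.30 (adjusted p = 0.369). Tpsab1, the tryptase next of kin to Tpsb2, read 5.62, 5.85 and 5.75 in Foxa2-/- lungs against 5.41, 4.73 and 6.22 in control lungs, dim on 4 arrays, so that its controls spanned a wider range than its Foxa2-/- lungs and lay on both sides of them. All 6 genes of histamine storage, breakdown and sensing had a positive difference, with a median of 0.18. Hrh1, the H1 histamine receptor, differed by 0.87 (adjusted p = 0.14) from controls that are all dim, and Hrh2, the H2 receptor, by 0.23 (adjusted p = 0.557). Of 7 measured surface genes 5 had a positive difference, with a median of 0.05. Siglecf, which eosinophils and alveolar macrophages carry in the mouse and which is also among the eosinophil markers, differed by 1.58 (adjusted p = 0.138) and Adora3, an adenosine receptor, by 1.02 (adjusted p = 0.203). Enpp3, a surface enzyme of basophils and mast cells, had the lowest difference of the list, -0.64 (adjusted p = 0.482), with overlap. Cd200r3, a receptor of mouse mast cells and basophils, was dim on every array and differed by 0.05 (adjusted p = 0.935).

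**Figure D4:**
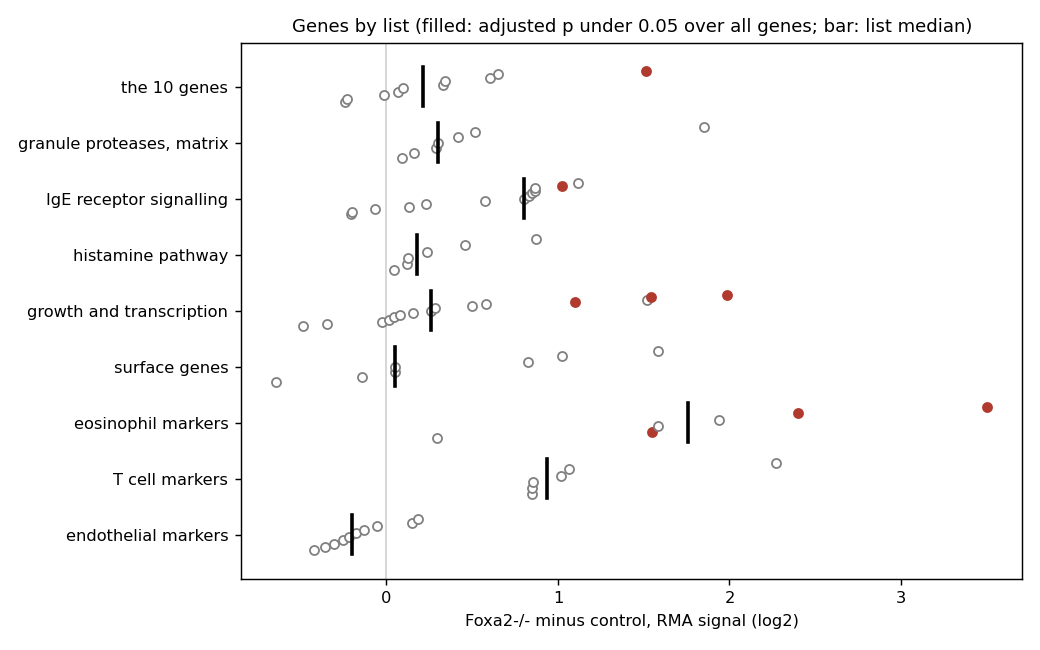
Difference of Foxa2-/- minus control (horizontal axis, log2 RMA signal) for each measured gene of the 10 markers, the 5 lists of other mast cell and basophil genes and 3 lists of other cells; filled points passed limma's test over all genes and black bars are list medians. The median is 0.21 for the 10 genes, 0.80 for IgE receptor signalling, 1.76 for eosinophil markers and -0.20 for endothelial markers. Most genes of the IgE receptor signalling list are also used by other blood cells.

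Likeness between genes was measured as the root mean square difference of log2 values, each gene first centred on its mean over the 6 arrays. Among the 10 genes the closest pair was Mcpt4 and Cma1, the connective tissue chymases (0.16), followed by Mcpt4 and Mcpt8 (0.19) and by Tpsb2 and Cma1 (0.24). Mcpt2 stood far from Gata2 (0.98), Kit (0.92) and Hdc (0.85), and it differed by 0.79 from Mcpt1. Among 3947 other genes whose values spanned at least 1 log2 unit, those nearest to Mcpt2 were Cd300lf (0.11), Greb1l (0.11) and Siglece (0.12), of which Cd300lf and Siglece encode inhibitory receptors of myeloid cells. Those nearest to Cpa3 were Zdhhc2 (0.13), Dock3 (0.16) and Ift80 (0.17), and those nearest to Mcpt8 were Rasgrf1 (0.18), Nrip3 (0.19) and Ivl (0.19). Cpa3 and Mcpt8 themselves span only 0.67 and 0.76 log2 units, so genes with as small a range were not among the candidates. With 6 arrays and this many genes, near profiles are found for any gene, and no test was made of them.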

How the data were processed

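The authors deposited 1 log2 value per probe set and array, made with RMA per the submitters' processing notes (version and settings not given in the sources used here). RMA corrects background, equalises the arrays and summarises probes, so a shift of most genes one way would be hidden. Only these values were used, not scanner files.

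Of 45101 probe sets, 64 Affymetrix controls were left out, and 34945 of the other 45037 have 1 symbol in the platform annotation, 932 several and 9160 none. The 10 genes were matched by exact symbol, and each gene was represented by its brightest single-gene probe set. Groups follow the genotype label and replicate numbers follow accession order. Nothing states that the arrays come from separate animals, so the p-values reflect only the spread between these samples, part of which may be technical. limma 3.58.1 (R 4.3.3) fitted Foxa2-/- minus control with lmFit and eBayes. Tests were two-sided, adjusted by Benjamini-Hochberg over all genes or all probe sets, with a threshold of 0.05. An exact permutation test of 3 against 3 arrays cannot give a p below 0.1 and was not used. In simulated data for Foxa2-/- against control over 18193 genes, limma found 52.2% of 67 genes shifted by 1 log2 unit and 88.1% of 67 shifted by 2, with 2 false calls. The number of arrays limits the precision.

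The 10 genes and the lists were chosen with earlier results of these data known. Also named were Foxa2, up to 4 genes of each list that passed (otherwise the 2 with the smallest p), and the 3 genes most like Cpa3, Mcpt8 and Mcpt2. Fcer1a, Ms4a2, Tpsab1, Gata1, Mitf, Tal1, Kitl, Il3, Il9, Enpp3, Cd200r3, Ccr3, Il5ra, Sftpb, Sftpc, Scgb1a1 and Foxj1 were named after their values were seen. Start windows and gene positions are RefSeq's for GRCm38.p6, and the array values carry no genome build. Alternatives were median centring, cyclic loess, filters on dim features, trend and robust eBayes, array weights, the title number as a block, fixed or random (statmod 1.5.0), leaving out each array, the mean of probe sets, adjustment over all probe sets and a threshold of 0.1.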

Additional observations from a re-analysis of the deposited data

How the results depend on the processing

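Leaving aside alternatives that keep a gene's difference as it is, 113 values of the 10 genes were recomputed, of which 103 kept their direction and 4 passed, all 4 of Mcpt2, whose difference stayed between 1.38 and 1.83. Mcpt2 was 1.54 with median centring (limma adjusted p = 0.0391), 1.73 with array weights (0.00748) and 1.63 with the shared title number fitted as a random effect (0.0177), and it did not pass with cyclic loess (1.47, 0.0791) or the number as a fixed block (1.83, 0.213). The direction turned for Cpa3, whose difference was 0.0082 with median centring, 0.15 with array weights, 0.24 with the number as a fixed block, 0.076 with it as a random effect, 0.15 without Foxa2-/- replicate 1 and 0.036 without control replicate 3. It turned for Mcpt1 without Foxa2-/- replicate 1 (-0.049), for Hdc without Foxa2-/- replicate 2 (-0.013) or control replicate 2 (-0.23) and for Gata2 without Foxa2-/- replicate 2 (0.027). With each array left out in turn, Cpa3 ranged from -0.18 to 0.15, Mcpt1 from -0.049 to 0.20, Hdc from -0.23 to 0.36 and Gata2 from -0.39 to 0.027. The cause was not tested.

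Of the 10 genes limma called 0 with cyclic loess or adjusted over all probe sets (in both cases 3 had an unadjusted p under 0.05), 0 with the fixed block (7 unadjusted), and 0 among genes above the 25th percentile (1 unadjusted) or the median of means (0 unadjusted), filters that remove Mcpt2. Leaving out each array gave 0 to 1 gene and 0 to 1 probe set. Array weights, the random block and a threshold of 0.1 each called 1 of the 14 probe sets. The count of other mast cell and basophil genes was 2 with cyclic loess, 10 with array weights, 0 with the fixed block (18 unadjusted), 7 with the random block and 0 to 4 with each array left out (14 to 20 unadjusted). Over all genes, the 104 called became 48 with cyclic loess, 52 among genes above the median, 607 with array weights, 0 with the fixed block (2121 unadjusted), 399 with the random block, 320 at a threshold of 0.1 and 0 to 249 with each array left out. No paired analysis was made because no sample label gives a litter or pairs a control with a Foxa2-/- lung, and the meaning of the title number is not given. The title number, common to 1 control and 2 Foxa2-/- arrays, was the block fitted above.

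Brightness limits Mcpt1, Fcer1a, Ms4a2, Il3, Il9 and Cd200r3, which are dim on all 6 arrays, and Tpsab1, dim on 4. Among named genes it also limits the control level of Mcpt2, Hrh1 and Prg3 (all 3 controls dim), of Mcpt4 and Epx (2 dim) and of Ccr3 and Prtn3 (1 dim).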

Other observations

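Markers of other cells that a whole lung holds were read on the same fit. None of 6 T cell markers passed. All 6 had a positive difference, where 9246 of all 18193 genes did, with a median of 0.94. Cd8a, the coreceptor of cytotoxic T cells, differed by 2.27 (limma adjusted p = 0.297) and Cd4, that of helper T cells, by 1.06 (adjusted p = 0.349). In these 2 of the 6 every Foxa2-/- array lay above every control, where 10.8% of all genes did so. Platelet and megakaryocyte markers, which include genes driven by GATA factors, had a median of 0.09 with none of 6 passing. Of these, Itga2b differed by 0.21 (adjusted p = 0.683) and Ppbp by 0.15 (adjusted p = 0.781), and Foxa2-/- replicate 1 was the highest array for both. Blood progenitor markers had a median of -0.10 and none of 6 passed. Flt3, a growth factor receptor of progenitors and dendritic cells, differed by 0.82 (adjusted p = 0.479) and Hlf, a factor of blood stem cells, by -0.47 (adjusted p = 0.564).

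Of the 6 lung epithelial markers, Sftpa1, Sftpb, Sftpc, Scgb1a1 and Ager averaged above 13 in both groups, and Foxj1, of ciliated cells, averaged 7.87 in Foxa2-/- lungs and 7.98 in control lungs. Sftpa1, a surfactant protein, averaged 14.50 ± 0.03 in Foxa2-/- lungs and 14.18 ± 0.21 in control lungs, and Ager, a receptor of alveolar type I cells, averaged 14.30 ± 0.13 in Foxa2-/- lungs and 14.46 ± 0.06 in control lungs (log2, SD, n = 3 each). None of the 6 markers passed and their median difference was -0.05. Sftpa1, Sftpc, Scgb1a1 and Ager lie near the highest signals of the arrays (14.72 to 14.88). Whether the array could still register a change at that brightness was not tested.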
